A study of Homo sapiens with 12 samples.

Results

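The genes described here are the 6 human DNA topoisomerases TOP1, TOP1MT, TOP2A, TOP2B, TOP3A and TOP3B and the tyrosyl-DNA phosphodiesterases TDP1 and TDP2. They were chosen by symbol, and all 8 were found among the 58083 genes of each RNA table. Topoisomerases cut DNA through an active-site tyrosine that stays covalently joined to the DNA end, let strands pass or rotate, and reseal the cut. When resealing fails, the enzyme remains trapped on DNA as a protein adduct, and TDP1 and TDP2 hydrolyse the bond between tyrosine and DNA. TDP1 acts mainly on adducts of TOP1 at 3′ ends and TDP2 on adducts of type II enzymes at 5′ ends. In dividing cells topoisomerases release the torsion made by replication and transcription and separate sister chromosomes, and in other studies G-quadruplex ligands have been linked to DNA breaks that depend on topoisomerase II.

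The cells of the series were HEK 293T, derived from human embryonic kidney and expressing SV40 large T antigen. It mapped G-quadruplexes, which are folded structures of guanine runs, by pulling down annealed genomic DNA with a small molecule, and it measured poly(A) RNA after a compound known here by its code name PDP. The RNA groups were HEK 293T given PDP at 1 µM and taken at 3 h, 24 h or 72 h, and HEK 293T given DMSO and taken at 3 h, with 2 samples in each, and the genomic groups were 2 pull-downs and 2 inputs. The labels do not say whether the 2 samples of a group came from separate cultures. Each RNA table holds 1 pooled FPKM value per gene and condition (fragments scaled by transcript length and library size), so single libraries cannot be seen, replicates give no SD, and library depth is unknown. The control column was the same in all 3 tables apart from a constant factor, which was 1.04 in the 24 h table and 0.968 in the 72 h table relative to the 3 h table. At 24 h and 72 h the effect of PDP and that of time in culture therefore cannot be told apart. Of 5 markers fixed for this line, the control held 259 FPKM of VIM, 23.1 of NEFL, 39.1 of NEFM, 4.89 of LHX1 and 0.896 of PAX2. PAX2 was thus under 1 FPKM there. With PDP at 72 h all 5 stood higher, at 399 FPKM for VIM, 102 for NEFL, 151 for NEFM, 7.73 for LHX1 and 3.31 for PAX2. PTPRC, HBB, ALB and COL1A2, markers of other cell types, were at or under 0.389 FPKM in the 3 PDP groups and the control.

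With PDP at 72 h, TOP2A (184 FPKM against 91.9 in the control) and TOP1MT (36.5 against 24.5 FPKM) were higher, and TOP3A (13.9 against 25.3 FPKM) and TDP2 (37.6 against 49.7 FPKM) were lower. TDP2 was also lower at 24 h, and TOP1, TOP2B, TOP3B and TDP1 were called at no time. A gene is called here when its q-value in the authors' deposited table is under 0.05. Log2 fold changes are PDP over control from the pooled FPKM, and a standard error (SE) is derived by dividing the log2 fold change by the authors' deposited statistic. This SE need not measure the same spread as the authors' p-value. At 3 h 0 of 8 were called, where the background was 0.115% of all genes tested, and 0 of 8 had an unadjusted p under 0.05. At 24 h 0 were called higher and 1 lower, against a background of 9.21% higher and 8.29% lower. At 72 h 2 were called higher and 2 lower, against a background of 19% higher and 12.8% lower, and with 8 genes 1 call is 12.5% of them, so 2 calls in each direction do not set them apart from all genes tested. The 8 genes had median log2 fold changes of -0.022, -0.13 and -0.024 at 3 h, 24 h and 72 h, beside -0.0036, -0.031 and 0.11 for all expressed genes. All 8 passed the FPKM minimum of 1, as the geometric mean of PDP and control, at every time.

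**Figure D1:**
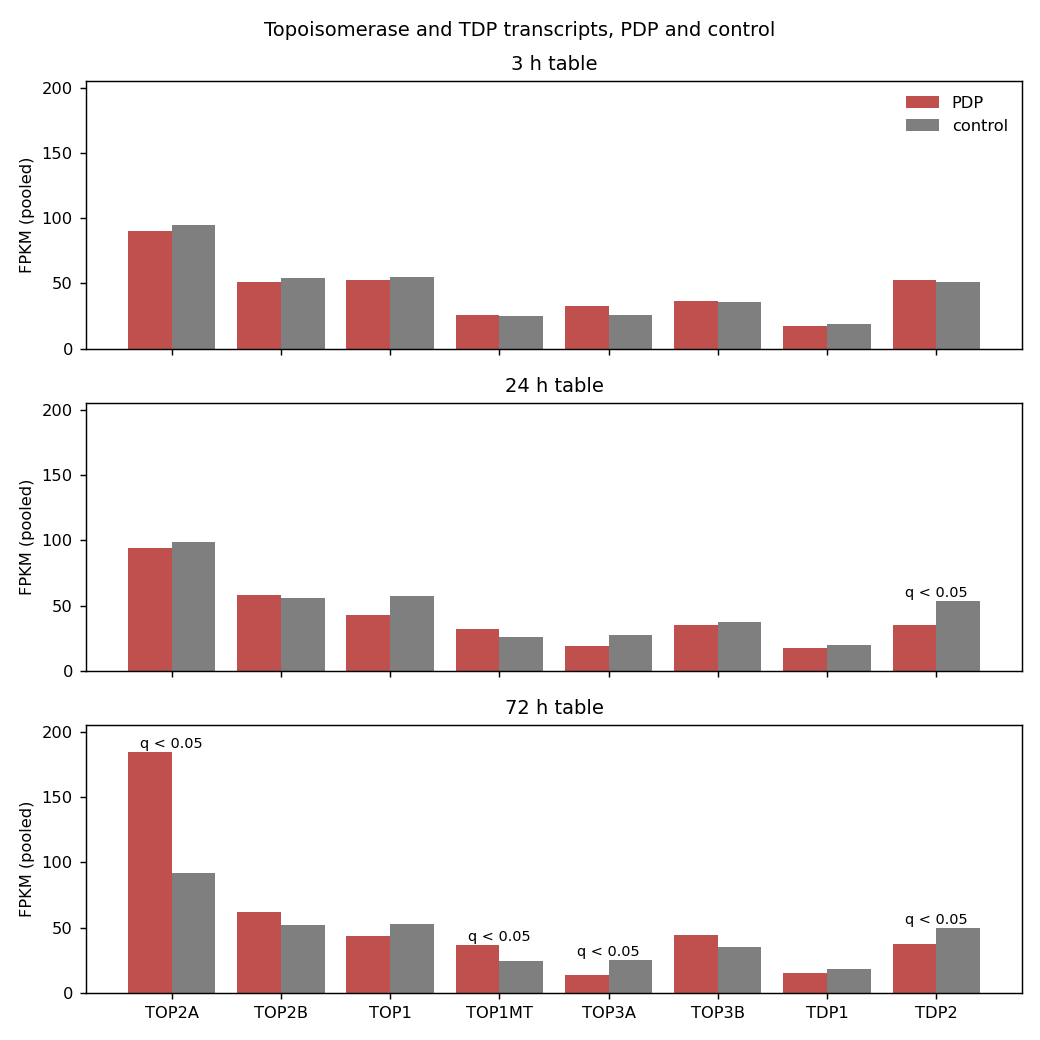
Pooled FPKM (vertical axis) of the 8 genes with PDP (red) and in the control (grey) in the 3 h, 24 h and 72 h tables; 1 bar is 1 value pooled by the authors, with no error available, and "q < 0.05" marks a call. TOP2A at 72 h stands at 184 FPKM with PDP against 91.9 FPKM in the control.

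In the control of the 3 h table the order of levels was TOP2A (95.1 FPKM), TOP1 (54.9), TOP2B (53.9), TDP2 (51.3), TOP3B (35.9), TOP3A (26.1), TOP1MT (25.3) and TDP1 (19.0). FPKM is a level per transcript length, so genes can be ordered, but pooled values give no spread, and whether neighbours in this order differ was not tested. TOP1, TOP2B and TDP2 lay within 3.55 FPKM of each other, and TOP3A and TOP1MT within 0.759 FPKM. Only 6.94% of expressed genes had a higher control level than TOP2A, while 39.3% had a higher one than TDP1. With PDP at 72 h the order was TOP2A (184 FPKM), TOP2B (61.9), TOP3B (44.4), TOP1 (43.3), TDP2 (37.6), TOP1MT (36.5), TDP1 (15.0) and TOP3A (13.9). TOP3A thus stood last with PDP and 6th in the control.

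TOP2A and TOP2B are the type II enzymes, which pass one duplex through a cut in another. TOP2A serves chromosome condensation and segregation and is made mainly in S, G2 and M phase, and TOP2B is present in dividing and resting cells and acts at promoters and loop anchors. TOP2A measured 89.9 FPKM with PDP against 95.1 in the control at 3 h, 94.3 against 98.8 at 24 h, and 184 against 91.9 at 72 h. Its level was close to the control at 3 h and 24 h and 2.01 times the control at 72 h. The 72 h log2 fold change was 1.00 (SE 0.29), with q = 0.000393 in the authors' deposited table, and 13.2% of expressed genes had a larger one. TOP2B measured 50.8 FPKM with PDP against 53.9 in the control at 3 h, 58.1 against 56.0 at 24 h, and 61.9 against 52.1 at 72 h. Its log2 fold change of 0.25 at 72 h (SE 0.31) was smaller than its SE and was not called (q = 0.242 in the authors' deposited table). The ratio of TOP2A to TOP2B, which no scaling of the libraries can move, was 1.77 with PDP and 1.76 in the control at 3 h, 1.62 and 1.76 at 24 h, and 2.98 and 1.76 at 72 h. TOP2A made up 48.0% of the summed FPKM of the 6 topoisomerases with PDP at 72 h, against 32.6% in the control. That sum was 384 FPKM with PDP and 282 FPKM in the control.

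The promoter windows of this pair are printed because TOP2A is known for inverted CCAAT boxes that the factor NF-Y binds. The windows run from 250 bases before to 50 bases after a RefSeq start site in GRCh38.p14, 5′ to 3′ on the gene's strand, and capitals mark ATTGG, the inverted form of CCAAT. TOP2A lies at chr17:40417847-40418146 on the minus strand, and the TOP2B window shown, the upstream one of 2 in RefSeq, at chr3:25664858-25665157 on the minus strand.
TOP2A: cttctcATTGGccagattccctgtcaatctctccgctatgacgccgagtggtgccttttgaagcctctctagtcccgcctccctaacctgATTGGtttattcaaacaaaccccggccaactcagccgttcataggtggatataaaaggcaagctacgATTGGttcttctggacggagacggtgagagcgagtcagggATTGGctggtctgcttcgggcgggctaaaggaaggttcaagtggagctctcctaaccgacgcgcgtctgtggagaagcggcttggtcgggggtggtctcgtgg
TOP2B: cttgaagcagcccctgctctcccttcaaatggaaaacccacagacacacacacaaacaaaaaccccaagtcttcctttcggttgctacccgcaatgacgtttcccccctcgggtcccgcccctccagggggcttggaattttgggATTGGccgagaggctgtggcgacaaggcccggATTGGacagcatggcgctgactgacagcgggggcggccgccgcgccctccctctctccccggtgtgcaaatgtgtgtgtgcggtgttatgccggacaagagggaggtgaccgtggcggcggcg
TOP2A held 4 boxes, starting 244, 160, 93 and 53 bases before the start site, all as ATTGG. The TOP2B window shown held 2, starting 105 and 73 bases before the start site, and the other TOP2B window held 0. Searched on both strands (CCAAT or ATTGG), 39.7% of the 27305 genes with a window held at least 1 box and 1.2% held at least 4. The 5 other genes with a window, TOP1, TOP3A, TOP3B, TDP1 and TDP2, held none. This motif was chosen after the windows had been read, and a match describes letters, not binding.

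TOP1 is the nuclear type IB enzyme, which nicks one strand and relaxes supercoils ahead of RNA polymerase and replication forks and is the target of camptothecin. TOP1MT is its relative in mitochondria, where it relaxes the mitochondrial genome. TOP1 measured 52.7 FPKM with PDP against 54.9 in the control at 3 h, 42.4 against 57.1 at 24 h, and 43.3 against 53.1 at 72 h. Its values were below the control at all 3 times, and it was not called: the log2 fold change was -0.43 (SE 0.27) at 24 h, with an unadjusted p of 0.0281 and q = 0.114 in the authors' deposited table, and -0.29 (SE 0.28) at 72 h with q = 0.254. TOP1MT measured 25.8 FPKM with PDP against 25.3 in the control at 3 h, 31.7 against 26.3 at 24 h, and 36.5 against 24.5 at 72 h. It rose at 72 h, by 0.58 on the log2 scale (SE 0.23), with q = 0.00163 in the authors' deposited table, and its 24 h value of 0.27 (SE 0.22) was not called (q = 0.207). The ratio of TOP1 to TOP1MT was 2.04 with PDP and 2.17 in the control at 3 h, 1.34 and 2.17 at 24 h, and 1.18 and 2.17 at 72 h. The transcripts of the nuclear and mitochondrial enzymes thus drew closer in level at each later time, although the difference between their fold changes was not tested.

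TOP3A and TOP3B are the type IA enzymes, which cut and pass one strand at a time. TOP3A works with the helicase BLM and the proteins RMI1 and RMI2 to dissolve linked recombination intermediates, and also separates copies of the mitochondrial genome. TOP3B acts on DNA and RNA in a complex with TDRD3 and the fragile X protein, encoded by FMR1. TOP3A measured 32.5 FPKM with PDP against 26.1 in the control at 3 h, 18.7 against 27.1 at 24 h, and 13.9 against 25.3 at 72 h. It stood above the control at 3 h and below it at both later times, and the 3 h value, a log2 fold change of 0.32 (SE 0.41), was the largest in size of the 8 genes at that time. At 24 h the log2 fold change was -0.53 (SE 0.40), with q = 0.161 in the authors' deposited table, and at 72 h TOP3A fell by 0.86 (SE 0.43), with q = 0.0165. At 72 h 9.03% of expressed genes had a smaller log2 fold change. TOP3B measured 36.3 FPKM with PDP against 35.9 in the control at 3 h, 34.8 against 37.3 at 24 h, and 44.4 against 34.8 at 72 h. It had the largest implied SE of the 8 genes at each time (0.58, 0.54 and 0.55). Its log2 fold change of 0.35 at 72 h was not called (q = 0.441 in the authors' deposited table). The ratio of TOP3B to TOP3A was 1.12 with PDP and 1.38 in the control at 3 h, 1.86 and 1.38 at 24 h, and 3.19 and 1.38 at 72 h. TOP3BP1, an annotated pseudogene of TOP3B, was at or under 0.102 FPKM in every condition, and TOP1P1, a pseudogene of TOP1, was listed at 0.

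Transcripts of the proteins that work with the TOP3 enzymes were called in both directions. Of TDRD3, FMR1, RMI1, RMI2 and BLM, 1 was called higher and 0 lower at 24 h in the authors' deposited table, beside 9.21% higher and 8.29% lower of all genes tested. At 72 h 1 was called higher and 2 lower, beside 19% higher and 12.8% lower of all genes tested, so the share higher, 20.0%, was near that of all genes. The median log2 fold changes were -0.11 and 0.14 at 24 h and 72 h, and those of all expressed genes -0.031 and 0.11. RMI1 measured 4.27 FPKM with PDP against 12.6 in the control at 72 h (log2 fold change -1.56, SE 0.26), and BLM 10.5 against 22.8 FPKM (-1.12, SE 0.31). RMI2 measured 29.6 FPKM with PDP against 16.5 in the control at 24 h (0.84, SE 0.32) and 28.0 against 15.4 FPKM at 72 h. Of the complex that holds TOP3A, 3 transcripts were thus lower and RMI2 higher at 72 h, while TDRD3 (8.88 FPKM with PDP, 7.41 in the control) and FMR1 (88.4 and 80.2 FPKM), the partners of TOP3B, were not called.

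TDP1 stood below TDP2 in FPKM at every time, and of the pair only TDP2 was called. The difference between their fold changes was not tested. TDP1 measured 17.2 FPKM with PDP against 19.0 in the control at 3 h, 17.6 against 19.8 at 24 h, and 15.0 against 18.4 at 72 h. It was a little below the control each time, at -0.14 (SE 0.27), -0.17 (SE 0.27) and -0.30 (SE 0.28) on the log2 scale, none called, and scaling to equal FPKM sums turned the 24 h value to 0.0020. TDP2 measured 52.5 FPKM with PDP against 51.3 in the control at 3 h, 35.4 against 53.3 at 24 h, and 37.6 against 49.7 at 72 h. It was level with the control at 3 h and fell at both later times. The log2 fold change was -0.59 (SE 0.21) at 24 h, with q = 0.00225 in the authors' deposited table, and -0.40 (SE 0.23) at 72 h, with q = 0.0466, just under the threshold. At 24 h 9.38% of expressed genes had a smaller log2 fold change than TDP2, and at 72 h 22.1% did. The ratio of TDP2 to TDP1 was 3.05 with PDP and 2.70 in the control at 3 h, 2.01 and 2.70 at 24 h, and 2.51 and 2.70 at 72 h. TDP2 fell at 24 h while TOP2A and TOP2B, whose adducts it removes, had log2 fold changes of -0.068 and 0.053.

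**Figure D2:**
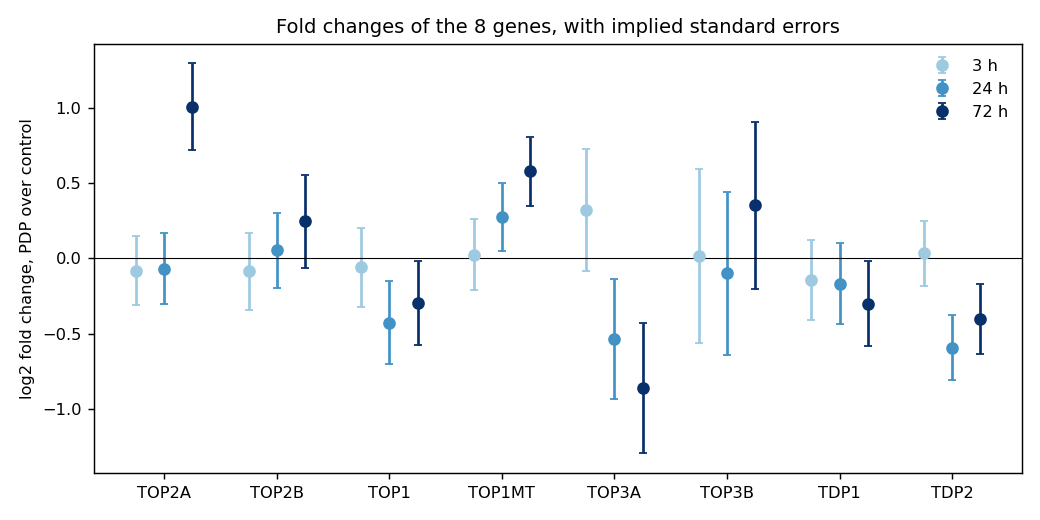
Log2 fold change of PDP over control (vertical axis) for the 8 genes at 3 h, 24 h and 72 h (light to dark points); bars are the implied SE, not a spread between replicates. TOP2A stands at 1.00 at 72 h and near 0 before, TOP1MT at 0.026, 0.27 and 0.58, and TOP3A at 0.32 at 3 h and -0.86 at 72 h.

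The time courses differed in shape. Between the 24 h and 72 h tables the log2 fold change of TOP2A moved by 1.07, and between 3 h and 24 h by 0.012. For TDP2 the step between 3 h and 24 h was -0.62 and the next one 0.19, and for TOP3A the steps were -0.85 and -0.33. These steps compare tables that were normalized separately and share their control, and they were not tested.

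**Figure D3:**
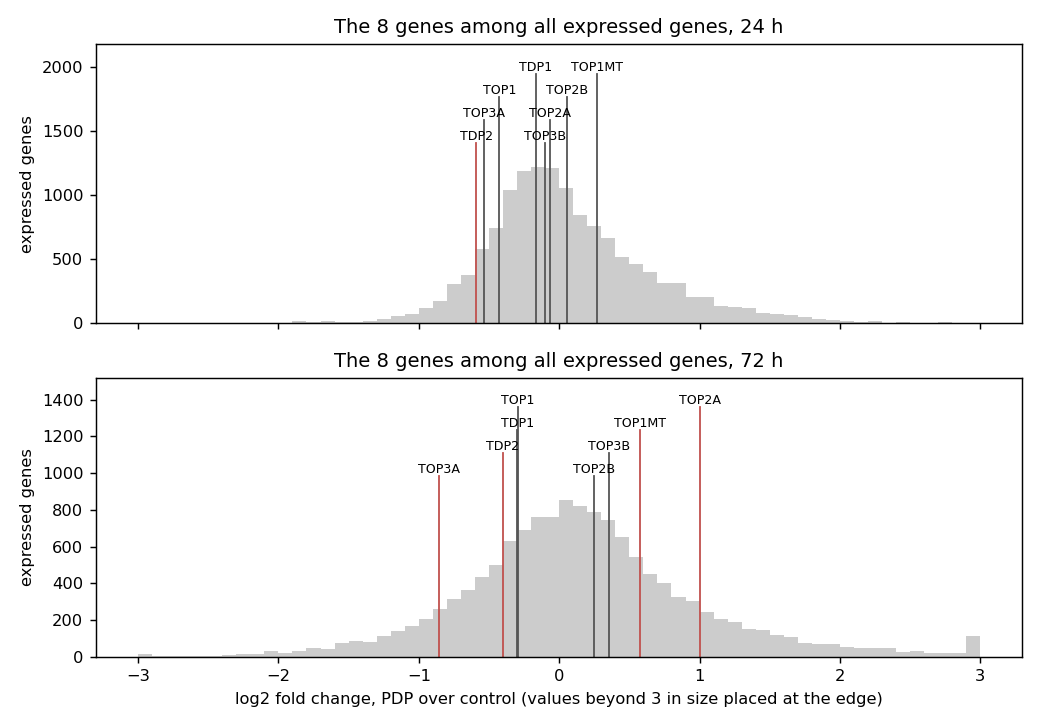
Number of expressed genes (vertical axis) by log2 fold change of PDP over control (horizontal axis) at 24 h and 72 h, with the 8 genes as lines, red where called. At 72 h TOP3A (-0.86) and TOP2A (1.00) stand on opposite shoulders of a broad distribution whose median is 0.11.

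Since TOP2A is made mainly late in the cell cycle, its values were set beside 24 other G2 and M phase genes. At 24 h 0 of these were called higher and 8 (33.3%) lower in the authors' deposited table, beside 9.21% higher and 8.29% lower of all genes tested. At q under 0.01, 5 were lower, beside 4.77% lower of all genes tested at that threshold. The median log2 fold change of the 24 was -0.33, that of all expressed genes was -0.031, and 5 of 24 had a higher value than TOP2A. CCNB1, cyclin B1, fell by 0.80 and KIF23, a kinesin of cytokinesis, by 0.78 on the log2 scale. Later, at 72 h, 12 rose and 4 (16.7%) fell past the threshold, beside 19% higher and 12.8% lower of all genes tested, so the share that fell was near that of all genes. The median was then 0.41, that of all expressed genes was 0.11, and 0 of 24 had a higher log2 fold change than TOP2A. The highest were BUB1B, a spindle checkpoint kinase, with 71.0 FPKM with PDP against 36.7 in the control (0.95, SE 0.41), and PRC1, a midzone protein, with 246 against 128 FPKM (0.94, SE 0.31). CCNB1 was the lowest at 72 h (-0.88). The TOP2A value thus came with higher levels of many but not all genes of its phase, and the part of cell cycle distribution in it was not tested.

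Trapped topoisomerases are first trimmed by proteolysis and marked by SUMO and ubiquitin, or are cut away by nucleases, before the break is joined. Among 7 genes of proteolysis and ligases, 0 were called higher at either later time, and 2 were called lower at 24 h and 3 at 72 h in the authors' deposited tables, beside 8.29% and 12.8% lower of all genes tested. The share of all genes called higher was 9.21% at 24 h and 19% at 72 h. The list's median log2 fold changes were -0.45 and -0.48 at 24 h and 72 h, and those of all expressed genes -0.031 and 0.11. RNF4, a ubiquitin ligase that reads SUMO chains, measured 20.6 FPKM with PDP against 31.3 in the control at 24 h (-0.60, SE 0.31) and 15.7 against 29.2 FPKM at 72 h (-0.89, SE 0.39). TOPORS, a ligase first found as a TOP1 binding protein, measured 7.36 FPKM with PDP against 15.3 in the control at 72 h (-1.05, SE 0.27). VCP, the segregase that extracts proteins from chromatin, fell by 0.52 at 24 h (SE 0.29). Both 24 h calls, RNF4 (q = 0.0107 in the authors' deposited table) and VCP (q = 0.0203), are lost at q under 0.01. SPRTN, the protease for DNA-bound proteins, measured 21.8 FPKM with PDP against 37.4 in the control at 72 h, and was the third lower call. It is named after its values were seen.

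Among 9 nuclease genes, FEN1 and NBN made up the 2 lower calls at each of 24 h and 72 h in the authors' deposited tables, and 0 were called higher. These are 22.2% of the list, beside 8.29% lower at 24 h and 12.8% lower at 72 h of all genes tested, and 9.21% and 19% of all genes were called higher. The list's median log2 fold changes were -0.18 and -0.12 at 24 h and 72 h, and those of all expressed genes -0.031 and 0.11. At 72 h its uncalled genes lay on both sides of 0, from -0.52 to 0.97. FEN1, the flap endonuclease, measured 49.9 FPKM with PDP against 90.9 in the control at 24 h (-0.87, SE 0.31) and 28.4 against 84.7 FPKM at 72 h (-1.58, SE 0.35). NBN, which guides the nuclease MRE11, measured 17.8 FPKM with PDP against 30.3 in the control at 24 h (-0.77, SE 0.34) and 19.0 against 28.2 FPKM at 72 h (-0.57, SE 0.33). In the list of end joining after TDP2, 0 of 6 were called at 24 h and 1 at 72 h, LIG4, the ligase of that pathway, which measured 2.70 FPKM with PDP against 3.75 in the control with q = 0.0499 in the authors' deposited table. LIG4 lies under an FPKM minimum of 5, and 1 of 6 is 16.7%, near the 12.8% lower of all genes tested. In the list of single-strand break repair after TDP1, 0 of 5 were called at any time. PARP1, the break sensor and the most abundant of them, measured 343 FPKM with PDP against 365 in the control at 3 h (-0.088, SE 0.38). At 3 h 0 of the 56 listed genes were called.

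**Figure D4:**
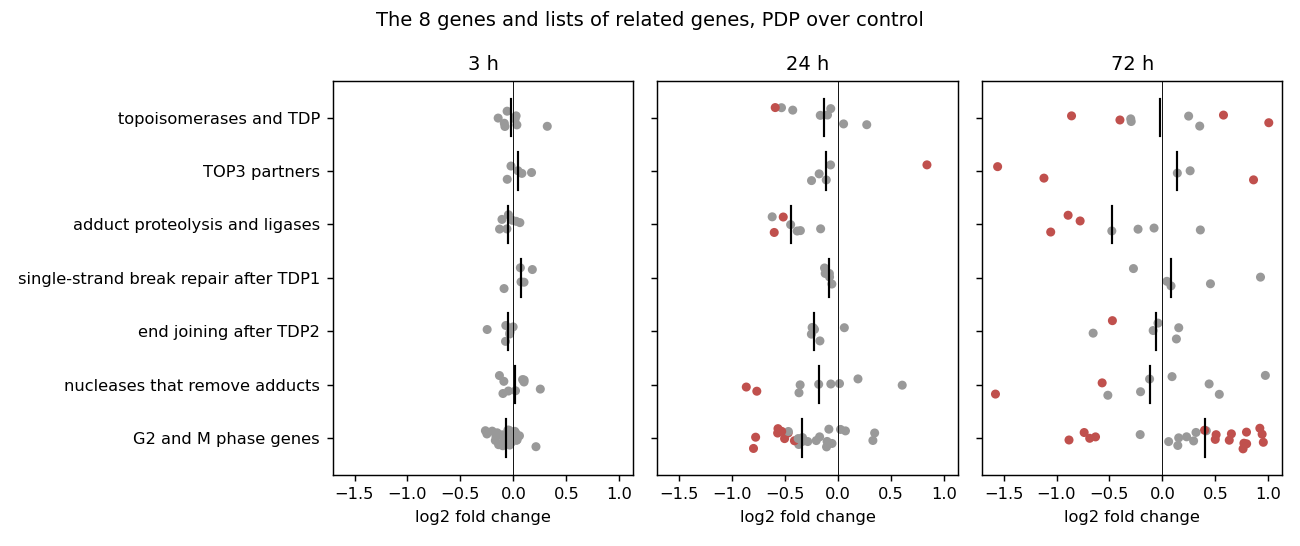
Log2 fold change of PDP over control (horizontal axis) of each gene at 3 h, 24 h and 72 h, for the 8 genes (top) and 6 lists of related genes; 1 point is 1 gene, red where called, and black bars are medians. Adduct proteolysis and ligase genes lie mostly below 0 at both later times, and G2 and M phase genes have medians of -0.33 at 24 h and 0.41 at 72 h.

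By Euclidean distance over the 3 log2 fold changes, among 12563 genes with at least 1 FPKM in every condition, the patterns closest to TOP2A were those of TIGD1 (distance 0.030), ANKRD10-IT1 and KLHL28. The closest to TOP1MT were GCH1 (0.0094), PAQR7 and SCHIP1, and to TOP3A TENT4B (0.072), ATAD2B and MAX. The closest to TDP2 were KLHL18 (0.048), RPA2 and ZC3H18. Among these neighbours, TIGD1, ANKRD10-IT1, SCHIP1 and MAX were themselves called at no time. For the 4 genes that were not called, the nearest were SMPDL3B, COPG2 and SGK3 to TOP2B, ALKBH6, DHX35 and KHSRP to TOP1, SEC11C, STK11IP and LGMN to TOP3B, and UGDH, PCMTD2 and PKD1P3 to TDP1. With an FPKM minimum of 5, 2 of the 3 closest genes stayed for TOP2A, TOP1MT, TOP3A and TDP1, and all 3 for the others. The 3 comparisons share a control, and with so many genes a close match over 3 values is a description of shape.

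The pull-down of annealed DNA gave an independent view of the same genes. The authors' list holds 51446 peaks present in both replicates, each with a score of unstated unit that is the authors' own. Of the 8 genes, 5 had the centre of at least 1 peak in the locus that the RNA tables give, against 60.4% of all genes tested at 72 h. TOP2A (chromosome 17, 40388515 to 40417950), TOP3A (chromosome 17, 18271427 to 18315007) and TDP2 (chromosome 6, 24649976 to 24667033, GRCh38) had none, and these are 3 of the 4 genes called in the RNA tables. They are also the shortest loci of the 8, at 29.4, 43.6 and 17.1 kb, and a link between peaks and calls was not tested. Loci of genes tested at 72 h held 1.95 peaks per 100 kb on the whole.

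The loci of TOP2B, TOP1 and TOP3B also hold other protein-coding genes, and peaks there need not belong to the enzyme. The TOP2B locus (491 kb) held 8 peaks, of which 2 lay in the RefSeq span of TOP2B itself, and the other 6 in the rest of the locus, which also holds RARB. These 2 were 11.3 and 20.0 kb inside the 5′ end of the locus, at chr3:25653309-25653888 and chr3:25644716-25645118. The TOP1 locus (289 kb), which also holds PLCG1 and ZHX3, had 7 peaks, of which 1 lay in TOP1, at chr20:41064719-41065121, 36.1 kb inside the 5′ end. Its score of 18.5 was at or above that of 88.3% of all peaks. Another peak, at chr20:41027281-41027777, lay 1.29 kb before the 5′ end of the TOP1 locus. All 3 peaks of the TOP3B locus lay outside TOP3B, in the rest of the locus, which also holds PPM1F. TDP1 had 2 peaks, 65.5 and 76.1 kb inside its 5′ end, and TOP1MT had 1, with a score of 16.1. By RefSeq span 4 of the 8 genes held a peak (TOP2B, TOP1, TOP1MT and TDP1), against 43.2% of protein-coding genes. In that span TOP2B had 2.98 peaks per 100 kb, TDP1 2.23, TOP1MT 1.97 and TOP1 1.05, beside 1.90 over the spans of all protein-coding genes.

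**Figure D5:**
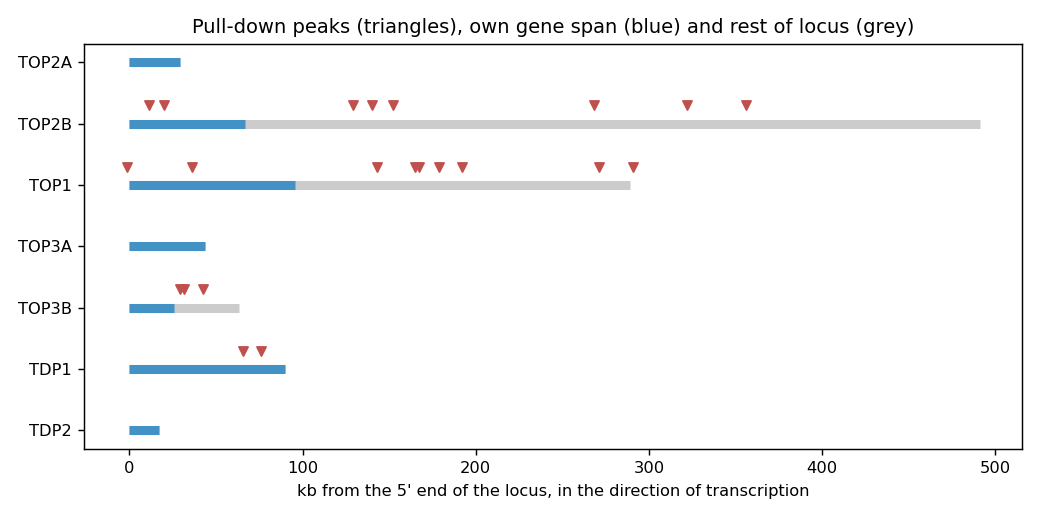
Position of pull-down peaks (triangles) in kb from the 5′ end of the locus in the direction of transcription (horizontal axis) for 7 of the 8 genes, with the RefSeq span of the gene in blue and the rest of the RNA table's locus in grey, including peaks up to 5 kb outside. Most peaks of the TOP2B and TOP1 loci and all of the TOP3B locus lie over grey; TOP1MT, whose strand was not taken from the tables used, is not drawn.

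The promoter windows were also searched for the letters of a G-quadruplex, because the pull-down and the compound are aimed at this structure. With 4 runs of at least 3 G, or of C on the printed strand, and spacers of 1 to 7 bases, 0 of the 7 genes with a RefSeq window held a match, and 27.9% of the 27305 genes did. With spacers of up to 12 bases 5 of 7 did (TOP2B, TOP1, TOP3A, TOP3B and TDP1), and 40.6% of all genes. TOP2A and TDP2 had none under either rule. G and C made up 62.0% to 64.7% of the 5 matching windows, beside a median of 58.7% over the 35097 windows of all genes. Without a match, the TOP2A window held 55.7%, that of TDP2 68.7% and the other TOP2B window 80.0%. Whether the matches follow this content was not tested. The windows of TOP1 (chr20:41028572-41028871, plus strand), near a peak and with a match, and of TOP3A (chr17:18314945-18315244, minus strand), with the longest match, are printed 5′ to 3′ with the matching stretch in capitals.
TOP1: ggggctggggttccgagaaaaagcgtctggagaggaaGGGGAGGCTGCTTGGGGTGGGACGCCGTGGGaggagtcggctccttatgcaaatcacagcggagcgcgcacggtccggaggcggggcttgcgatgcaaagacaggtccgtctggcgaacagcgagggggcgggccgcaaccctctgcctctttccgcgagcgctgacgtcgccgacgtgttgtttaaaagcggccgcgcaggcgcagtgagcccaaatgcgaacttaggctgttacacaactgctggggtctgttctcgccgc
TOP3A: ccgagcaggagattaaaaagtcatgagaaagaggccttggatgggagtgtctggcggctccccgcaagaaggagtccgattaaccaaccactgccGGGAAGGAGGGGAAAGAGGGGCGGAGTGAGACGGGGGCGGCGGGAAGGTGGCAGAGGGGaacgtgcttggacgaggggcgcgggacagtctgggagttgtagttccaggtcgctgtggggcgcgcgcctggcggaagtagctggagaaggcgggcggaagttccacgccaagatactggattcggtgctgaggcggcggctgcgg
The stretch was 31 bases long in TOP1 and began 213 bases before the start site, and in TOP3A it was 59 bases long and began 155 bases before it. The peak next to TOP1 lies upstream of this window, and no peak centre lay within 5 kb of the TOP3A locus. A match says nothing of whether the structure forms or binds PDP.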

How the data were processed

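Among the tools that the submitters' processing notes list are Cufflinks 2.2.1, HISAT2 2.0.5, HOMER 4.9.1 and Bowtie2 2.2.9, with GRCh38.p7 as the build; their roles and settings are not given in the sources used here. Per the file headers, columns are those Cuffdiff writes for genes; the FPKM deposited by the authors pool the replicates of each condition. PDP is compared with control by a p-value and a q-value, both deposited by the authors. The score in the authors' deposited statistic column was used to derive an SE, as log2 fold change over statistic, which need not measure the same spread as the p-value. The peak list deposited by the authors has a score of unstated unit, and its columns name peak files of both replicates. Depth is unknown.

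Log2 fold changes were computed from FPKM with no pseudocount. The 8 genes, lists and tests were chosen with earlier results of these data known, and no set test was made. Named genes were the 8, the 2 largest called changes per list and time (for a list with no call its most abundant gene), and the 3 closest patterns per gene; RMI2 at 72 h, TDRD3, FMR1 and SPRTN were added after their values were seen. Loci are those of the RNA tables, in GRCh38; RefSeq spans, strands and promoter windows are of GRCh38.p14, a patch release of the same assembly. RefSeq windows matched 7 of the 8 genes, not TOP1MT. The TOP2A, TOP2B, TOP1, TOP1MT and TOP3A loci also list small RNA or pseudogene entries, and the TOP3B locus the antisense entry PPM1F-AS1. Steps were tested on simulated data. Work used Python 3.11.15, NumPy 2.4.6, pandas 2.3.3 and Matplotlib 3.10.9.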

Additional observations from a re-analysis of the deposited data

How the results depend on the processing

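No paired analysis was possible because each table holds 1 pooled value per condition, and for the same reason no replicate could be left out. Under a pseudocount of 1 and after subtracting the median of expressed genes, the 24 log2 fold changes of the 8 genes kept their sign. Scaling to equal FPKM sums adds 0.17 at 24 h and -0.10 at 72 h, and 3 uncalled values at 24 h changed sign: TOP2A (0.10), TOP3B (0.070) and TDP1 (0.0020). At q under 0.01 the calls lower at 72 h, TOP3A and TDP2, went to 0, with 8.69% of all genes tested still lower. Of the 56 listed genes, 7 were called lower at 24 h at q under 0.01, against 12 at q under 0.05. The share of all genes tested that was lower at 24 h was 4.77% at q under 0.01 and 8.29% at q under 0.05. With changes also required to reach 1 on the log2 scale, calls were 0 lower at 24 h, 1 higher at 72 h (TOP2A) and 0 lower at 72 h. The shares of all genes tested under this rule were 1.07% lower at 24 h, 10% higher at 72 h and 5.25% lower at 72 h. With no FPKM minimum or one of 5, the counts over the 8 genes did not move; the minimum of 5 ended the 1 end-joining call (LIG4 at 72 h) and left 11 listed genes lower at 72 h, against 12. Peaks with a score of at least 14.2, the upper quartile, lay in 2 loci (TOP1 and TOP1MT) against 5 with all peaks; 27.7% of genes tested held such a peak. Of the 7 genes with a promoter window, 0 held a G-quadruplex motif with spacers of 1 to 7 bases and 5 with spacers of up to 12. With runs of 2 G it was 7, so this count rests on the definition. The shares of all 27305 genes with a window under these rules were 27.9%, 40.6% and 82.7% in turn. The RefSeq spans and the CCAAT boxes were alternatives chosen after seeing the data. Without libraries of their own, the values of 1 gene cannot show whether 1 culture carried a change, and the p-values may measure technical spread.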
